A study of Homo sapiens with 28 samples.

Results

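Translation initiation factors and aminoacyl-tRNA synthetases were followed as mRNAs in wild-type HEK293T, a human embryonic kidney cell line. The members were the transcripts of the authors' deposited rate table (first-order constants of RNA degradation) whose names begin with EIF and a digit, or are synthetase names (a letter and ARS, alone or with a closing 1 or 2, EPRS, FARSA and FARSB). The rule found 48 of 2568 transcripts, 29 under an eIF name and 19 synthetases, by a rule on names that used no measured value. Of the 29, 21 had a value with all 3 chemistries, 5 with 2 and 3 with 1, and of the 19 synthetases 14, 3 and 2 had values with 3, 2 and 1. The cells received 100 µM 4-thiouridine (s4U) for 2 h or none, and their RNA was converted by 1 of 3 chemistries so that s4U positions read as C. The chemistries were iodoacetamide alkylation (SLAM in the table), osmium tetroxide with ammonia (TUC) and sodium periodate with trifluoroethylamine at pH 5.2 (TimeLapse). Each was applied to RNA from drop-out handling (DO, the common protocol) and from improved handling (IH, a protocol meant to keep labelled RNA from being lost), giving 2 libraries with s4U and 1 without for each chemistry and handling. The labels do not say whether the 2 came from separate cultures, so the authors' p-values may rest on technical spread. A single constant stands in the table for each transcript, chemistry and handling, with no value per library, so nothing below has a replicate error. Every constant, log2 change of a constant and adjusted p of a transcript given below is a value of the authors' deposited table, also where a sentence does not repeat it. The time unit is not given in the sources used here, and constants are compared only with each other.

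Initiation factors bring the small ribosomal subunit, the initiator tRNA and the mRNA together. The cap-binding complex eIF4F opens the mRNA's 5′ end, the many-subunit eIF3 holds the assembly, eIF2 carries the initiator tRNA, and eIF2B recharges eIF2 with GTP. Synthetases load each tRNA with its amino acid. Several of the cytosolic enzymes sit in a multisynthetase complex, and separate genes encode most of the mitochondrial ones. A rate constant of degradation states how fast existing mRNA is lost, and a higher constant means a shorter-lived mRNA. Many mRNAs of the translation machinery begin with a C and a run of pyrimidines, the terminal oligopyrimidine start that LARP1 binds. Genes of several synthetases are textbook targets of ATF4, which binds elements that read TGATGNAA.

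The letters at the annotated transcription start were read from RefSeq promoter windows (GRCh38.p14), which covered 38 of the 48 members. The windows hold 250 bases before the start and 50 after it, and for genes with several starts the first listed was used. The sequences below show the last 15 bases before the start and the first 15 of the transcript, with the pyrimidine run at the start in capitals. They are shown because the rate constants of initiation factors with and without this feature are set side by side further on.
EIF2S3 (chrX:24054941-24054970, plus strand): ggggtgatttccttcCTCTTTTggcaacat
EIF3D (chr22:36529152-36529181, minus strand): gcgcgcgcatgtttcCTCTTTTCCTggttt
EIF3F (chr11:7987322-7987351, plus strand): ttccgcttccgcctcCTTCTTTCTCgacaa
EIF3K (chr19:38619173-38619202, plus strand): ttccgtttccaccacCTCTTCCTgttcccg
EIF4A2 (chr3:186783562-186783591, plus strand): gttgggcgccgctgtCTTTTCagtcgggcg
EIF4B (chr12:53006441-53006470, plus strand): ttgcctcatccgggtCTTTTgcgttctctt
QARS (chr3:49104743-49104772, minus strand): ctggggcctaagtttCTTTTagtttccggt
EIF4A1 (chr17:7572810-7572839, plus strand): aggcgggcactccgcCCTagtttctaagga
The motif searched was a C at the start base followed by 4 bases that are each C or T, on the gene's strand. It was present in 8 of 23 initiation-factor windows (34.8%): the 6 printed above and those of EIF2D and EIF3M. Of 15 synthetase windows only that of QARS had it (6.67%), and EIF4A1, with a run of 3, did not. The count depends on the exact annotated start base. In KARS, EIF4E2, EIF4EBP2 and EIF4G2 such a run began at the next base, and they count as without it here and further on. The share was 4.07% over all 35116 windows and 8.25% over the 2110 windows of other transcripts in the rate table.

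The element TGATGNAA, searched on both strands of the same windows, was found in 4 of 15 synthetase windows (26.7%) and in 0 of 23 initiation-factor windows. All windows gave 3.62%, and 1.14% of those of other transcripts with a rate held it. The capitals mark the match, which read TTGCATCA on the gene's strand in each of the 4.
AARS (chr16:70289675-70289704, minus strand): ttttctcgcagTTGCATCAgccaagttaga
IARS (chr9:92293692-92293721, minus strand): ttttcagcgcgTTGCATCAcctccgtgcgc
MARS (chr12:57488053-57488082, plus strand): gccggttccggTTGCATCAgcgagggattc
TARS (chr5:33440956-33440985, plus strand): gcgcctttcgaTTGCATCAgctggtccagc
The match began 187 bases before the annotated start in AARS, 13 before it in IARS and 4 before it in MARS, and at base 3 of the transcript in TARS. A match describes letters in a window and shows no binding.

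Depth and labelling were read from the authors' deposited count table, in its HISAT-3N alignments. The 12 labelled libraries held 2129372 to 5813077 reads and the 6 unlabelled ones 1935777 to 9962345. Converted reads, those carrying a T-to-C mismatch, made up 16.7% to 25.0% of labelled DO libraries and 40.0% to 58.2% of labelled IH libraries, with no overlap. Unlabelled libraries, the background of the same measurement, had 3.28% to 5.17% under DO and 2.41% to 3.07% under IH. The 95% Wilson interval of each share reached at most 0.0658 percentage points to either side, for counting error only. That table names genes by identifiers that could not be paired with symbols here, so no member has a value per library and the line was not checked by its marker genes.

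Over all transcripts the constants were higher under IH, by a median log2 change of 1.14 with SLAM, 1.19 with TUC and 1.18 with TimeLapse in the authors' deposited table. The converted share of reads moved with handling too, and its part in the changes was not tested. Changes of the members are to be read against that shift. The initiation factors rose by a median of 1.18, 1.44 and 1.22 in the same order, and the synthetases by 1.41, 1.55 and 1.55. The medians of the other transcripts were 1.14, 1.18 and 1.17. The synthetase median lay above that of the other transcripts by more than the initiation-factor median did with each chemistry. With TUC this depended on the list. Without the eIF2 kinase, the eIF4E-binding proteins, EIF4A3 and EIF5A, the initiation-factor median with TUC was 1.57, above that of the synthetases. With SLAM and TimeLapse it was 1.23 and 1.40, still below. With SLAM and TimeLapse the initiation factors and the other transcripts had nearly the same median change.

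By the authors' adjusted p under 0.05, 15 of 22 initiation factors rose with SLAM, where the background over all 1600 transcripts was 48.9%. With TUC 20 of 28 rose, against a background of 48.1% of 2262. With TimeLapse 20 of 26 rose, against 52.6% of 2209. The synthetases called were 9 of 17 with SLAM, 10 of 15 with TUC and 13 of 18 with TimeLapse. No member was called lower under IH, where the background was 1.44%, 0.442% and 0.679%. Of members with 3 values, 11 of 21 initiation factors and 8 of 14 synthetases were called with all 3 chemistries, beside 36.2% of all 1471 such transcripts. Not called higher under IH with any chemistry were 3 initiation factors (EIF3H, EIF4G2 and EIF5A) and 3 synthetases (EPRS, FARSA and KARS), beside 29.6% of all such transcripts. At an adjusted p under 0.01, 11 of 28 initiation factors were called with TUC, against a background of 27.0%. With TimeLapse 7 of 26 passed, a share below the background of 33.5%, whereas at 0.05 the share was above it. With SLAM the background was 32.4%, and 11 of 22 initiation factors and 7 of 17 synthetases passed. The synthetases that passed were 10 of 15 with TUC and 10 of 18 with TimeLapse. Counts of values given below for groups of members hold a transcript once per chemistry, so they are not counts of separate transcripts.

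Levels under IH were compared next. The median IH constant of the initiation factors was 0.0714 with SLAM, 0.104 with TUC and 0.0839 with TimeLapse in the authors' deposited table. That of the synthetases was 0.0652, 0.0988 and 0.0923, and that of the other transcripts 0.0838, 0.0997 and 0.102. Above the median of all transcripts lay 7 of 17 synthetases with SLAM, 7 of 15 with TUC and 8 of 18 with TimeLapse. For the initiation factors these counts were 10 of 22, 15 of 28 and 9 of 26. By their medians both classes lay below the other transcripts (the synthetases with TUC only slightly), except the initiation factors with TUC. Over the 21 initiation factors with 3 values that TUC median was 0.0867, and their median change with TUC was 1.16. Without the eIF2 kinase, the eIF4E-binding proteins, EIF4A3 and EIF5A, the initiation-factor IH median with SLAM was 0.0877, above that of the other transcripts. Under DO the medians were 0.0366, 0.0367 and 0.0384 for initiation factors, 0.0285, 0.0352 and 0.0346 for synthetases, and 0.0355, 0.0412 and 0.0431 for the rest. Among initiation factors the order of the IH constants was shared between chemistries, with Spearman's rho of 0.873 (SLAM and TUC, 21 transcripts), 0.924 (SLAM and TimeLapse, 22) and 0.884 (TUC and TimeLapse, 25). For the synthetases rho was 0.723, 0.924 and 0.662 over 14, 17 and 14 transcripts, and for the others 0.922, 0.937 and 0.936. These describe transcripts whose constants come from 1 set of libraries per chemistry.

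**Figure D1:**
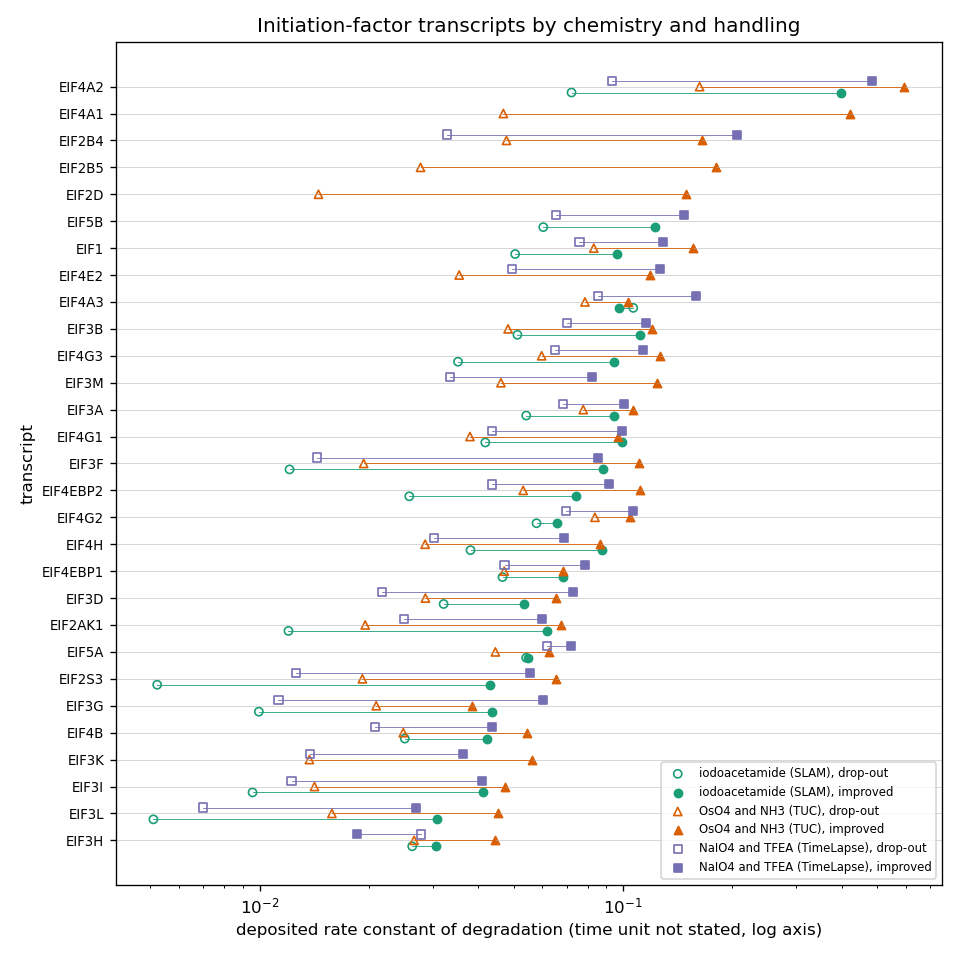
Deposited rate constants (log axis, time unit not stated) of the 29 transcripts under an eIF name, with open symbols for drop-out and filled symbols for improved handling, by chemistry. EIF4A2 lies highest under improved handling with each chemistry, at 0.398, 0.595 and 0.484, and EIF4A1, with 1 value, is next at 0.421.

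Under IH the helicases of eIF4F had the highest constants of the class, while under DO EIF4A1 (TUC) and EIF4A2 (SLAM) lay below other members such as EIF4A3. EIF4A2, an RNA helicase that unwinds the mRNA's leader, had DO constants of 0.0721 (SLAM), 0.162 (TUC) and 0.0930 (TimeLapse) in the authors' deposited table and IH constants of 0.398, 0.595 and 0.484. The lowest IH value was above the highest DO value. This also held for KARS, which was not called with any chemistry (highest DO 0.0419, lowest IH 0.0428). How many of all transcripts show it was not counted. The log2 changes of EIF4A2 were 2.50, 1.92 and 2.43 (the authors' adjusted p = 2.13e-08, 9.28e-05 and 7.47e-07). Under IH it ranked at the 98.1, 99.3 and 97.9 percentile of the transcripts with that chemistry, and under DO at the 77.1, 91.7 and 78.7 percentile. EIF4A1, its close paralog, had a value with TUC alone: 0.0469 under DO and 0.421 under IH in the authors' deposited table, a log2 change of 3.24 (the authors' adjusted p = 1.77e-07) and a move from the 55.8 to the 97.9 percentile. How the authors assigned reads that match both paralogs is not given in the sources used here.

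The genes of both helicases contain small nucleolar RNA genes in RefSeq. EIF4A2 holds 5 (SNORA4, SNORA63, SNORA63B, SNORA81 and SNORD2) and EIF4A1 3 (SNORA48, SNORA67 and SNORD10), more than any other member. Such genes lay within 5 of 29 initiation-factor genes (17.2%) and 3 of 19 synthetase genes (15.8%), beside 6.29% of 2496 other matched genes, with strand not considered. The other hosts were EIF3A with 2, and EIF4G1, EIF4G2, EPRS, IARS and IARS2 with 1 each. Among the other transcripts, hosts were the slower ones by their median: with TUC the IH median was 0.0890 in 139 hosts and 0.0997 in 2059 genes without one. Among the initiation factors the order was the opposite, with IH medians of 0.0968 in 4 hosts and 0.0650 in 18 others with SLAM, 0.107 (5) and 0.0867 (23) with TUC, and 0.103 (4) and 0.0757 (22) with TimeLapse. Synthetase hosts were slower than the other synthetases, with IH medians of 0.0458 (3) and 0.0784 (14) with SLAM, 0.0713 (2) and 0.102 (13) with TUC, and 0.0438 (3) and 0.104 (15) with TimeLapse. This feature was looked up after the rates of EIF4A2 had been seen.

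EIF4G1 and EIF4G2 differed in their change. EIF4G1, the scaffold that joins helicase and cap-binding protein, had nearly the same IH constant with each chemistry (0.0991, 0.0970 and 0.0993 in the authors' deposited table) from DO constants of 0.0418, 0.0379 and 0.0435. Its log2 changes of 1.25, 1.36 and 1.20 were close to the shift of all transcripts (the authors' adjusted p = 2.96e-06, 0.000149 and 6.65e-06). EIF4G2, a relative that lacks the part binding the cap-binding protein, had DO constants of 0.0578, 0.0837 and 0.0696 and IH constants of 0.0658, 0.104 and 0.106 in the authors' deposited table. Its changes of 0.22, 0.34 and 0.64 did not pass with any chemistry (the authors' adjusted p = 0.648, 0.449 and 0.094). Both scaffolds started from different DO levels and were closer under IH with TUC and TimeLapse.

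Among the other eIF4 genes, EIF4B, a cofactor of the helicase, was among the slowest initiation factors, with IH constants of 0.0421, 0.0544 and 0.0437 in the authors' deposited table. It was called with TUC and TimeLapse (the authors' adjusted p = 0.018 and 0.0125) and not with SLAM (0.0996), and its changes of 0.78, 1.16 and 1.11 lay below the shift of all transcripts. EIF4H, a related cofactor, was called with all 3 chemistries and had IH constants of 0.0688 to 0.0877. EIF4G3, a further scaffold, was also called with all 3, at IH constants of 0.0944 to 0.126. The changes of EIF4G3 were 1.49 (SLAM), 1.14 (TUC) and 0.84 (TimeLapse) (the authors' adjusted p = 0.00961, 0.0455 and 0.0475). Those with TUC and TimeLapse lay below the shift of all transcripts. EIF4E2, a cap-binding protein that represses translation, was called with both chemistries that gave it a value, with changes of 1.82 (TUC) and 1.40 (TimeLapse). The proteins that hold back the cap-binding factor, EIF4EBP1 and EIF4EBP2, passed in 2 of 6 values, with changes from 0.54 to 1.58, beside 48.9%, 48.1% and 52.6% of all transcripts with SLAM, TUC and TimeLapse.

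The eIF3 subunits split into slow and average mRNAs. Of 14 names on the list, 10 had values, and 20 of their 28 values were called higher under IH, beside 48.9%, 48.1% and 52.6% of all transcripts with SLAM, TUC and TimeLapse. Their median IH constants of 0.0486 (SLAM), 0.0606 (TUC) and 0.0666 (TimeLapse) lay below those of all other transcripts with each chemistry. EIF3F, a subunit with a deubiquitinase-type fold, had the largest mean change of the 21 initiation factors with 3 values, with DO constants of 0.0121, 0.0193 and 0.0144 and IH constants of 0.0881, 0.111 and 0.0855 in the authors' deposited table. All IH values were above all DO values, as they also were for KARS, which was not called. The changes of EIF3F were 2.93, 2.56 and 2.64 (the authors' adjusted p = 1.31e-05, 6.27e-06 and 3.27e-05).

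EIF3L and EIF3I stayed among the slowest mRNAs under both handlings. EIF3L had DO constants of 0.00510, 0.0158 and 0.00701 and IH constants of 0.0308, 0.0452 and 0.0270 in the authors' deposited table, at the 12.5, 14.2 and 4.84 percentile under IH. EIF3I moved from 0.00957, 0.0142 and 0.0122 to 0.0411, 0.0473 and 0.0410. Both were called with all 3 chemistries, with changes from 1.57 to 2.72 for EIF3L and from 1.78 to 2.14 for EIF3I. Each change exceeded the median of all transcripts, and EIF3I lay at the 19.2, 16.0 and 12.1 percentile under IH.

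EIF3H, the partner of EIF3F in fold, was different in its values. By the mean of log2 IH constants it was the slowest of the 21 initiation factors with 3 values, with DO constants of 0.0263, 0.0266 and 0.0278 and IH constants of 0.0305, 0.0443 and 0.0185 in the authors' deposited table. Its changes of 0.29, 0.84 and -0.44 did not pass (the authors' adjusted p = 0.738, 0.286 and 0.665), and the IH and DO values overlapped. EIF3B was called with all 3 at changes of 1.14, 1.34 and 0.73, and its IH constants were 0.112, 0.120 and 0.115. EIF3A, the largest core subunit, had IH constants of 0.0945 to 0.107 and passed with SLAM alone (change 0.83, the authors' adjusted p = 0.0313). EIF3G was called with SLAM and TimeLapse (2.16 and 2.48) and had a change of 0.89 with TUC (the authors' adjusted p = 0.12). EIF3D, which can itself bind a cap, passed with TUC and TimeLapse, EIF3K with TUC alone, and EIF3M with both chemistries that listed it.

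Of 14 names of eIF2 subunits and delivery factors, eIF2B subunits and eIF2 kinases, 5 had values, and their 10 values were called, beside 48.9%, 48.1% and 52.6% of all transcripts with SLAM, TUC and TimeLapse. EIF2S3, the GTP-binding subunit of eIF2, had DO constants of 0.00523, 0.0192 and 0.0126 and IH constants of 0.0432, 0.0654 and 0.0556 in the authors' deposited table. Its changes were 3.30, 1.87 and 2.33 (the authors' adjusted p = 0.00232, 0.00809 and 0.0119). With SLAM its DO constant lay at the 1.25 percentile of all transcripts, and the log2 ratio of its constants was 3.05. EIF2D, which can deliver a tRNA without GTP, had the largest change of any member, 3.59 with TUC, its only value (0.0145 to 0.149, the authors' adjusted p = 0.000887). The eIF2B subunits EIF2B4 and EIF2B5 had some of the fastest IH constants after the helicases: 0.165 (TUC) and 0.206 (TimeLapse) for EIF2B4 and 0.180 (TUC) for EIF2B5 in the authors' deposited table. EIF2AK1, the haem-regulated kinase that shuts eIF2 down, had IH constants of 0.0599 to 0.0674 and was called with all 3 chemistries.

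Factors of start-codon choice and subunit joining changed by less. EIF1, which keeps scanning ribosomes from wrong start codons, had DO constants of 0.0505, 0.0831 and 0.0759 and IH constants of 0.0963, 0.156 and 0.129 in the authors' deposited table. It was called with each chemistry (the authors' adjusted p = 0.00928, 0.0201 and 0.0106), yet its changes of 0.94, 0.92 and 0.78 lay below the shift of all transcripts. EIF5B, the GTPase of subunit joining, changed by 1.07 (SLAM) and 1.22 (TimeLapse), and both values were called.

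EIF5A and EIF4A3, whose main work lies outside initiation, had 1 call in 6 values, beside 48.9%, 48.1% and 52.6% of all transcripts with SLAM, TUC and TimeLapse. EIF5A, which acts in elongation, had DO constants of 0.0541, 0.0445 and 0.0618 and IH constants of 0.0548, 0.0628 and 0.0719 in the authors' deposited table. The values overlapped, no change passed (0.01, 0.50 and 0.22, the authors' adjusted p = 0.971, 0.201 and 0.543), and its rank went from the 68.2, 54.0 and 64.9 percentile to the 29.8, 27.0 and 32.1 percentile. EIF4A3, the helicase of the exon junction complex, had IH constants of 0.0974, 0.103 and 0.158 against DO constants of 0.107, 0.0786 and 0.0854. Its changes were -0.13, 0.41 and 0.91, of which the TimeLapse value alone passed (the authors' adjusted p = 0.799, 0.401 and 0.0229).

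**Figure D2:**
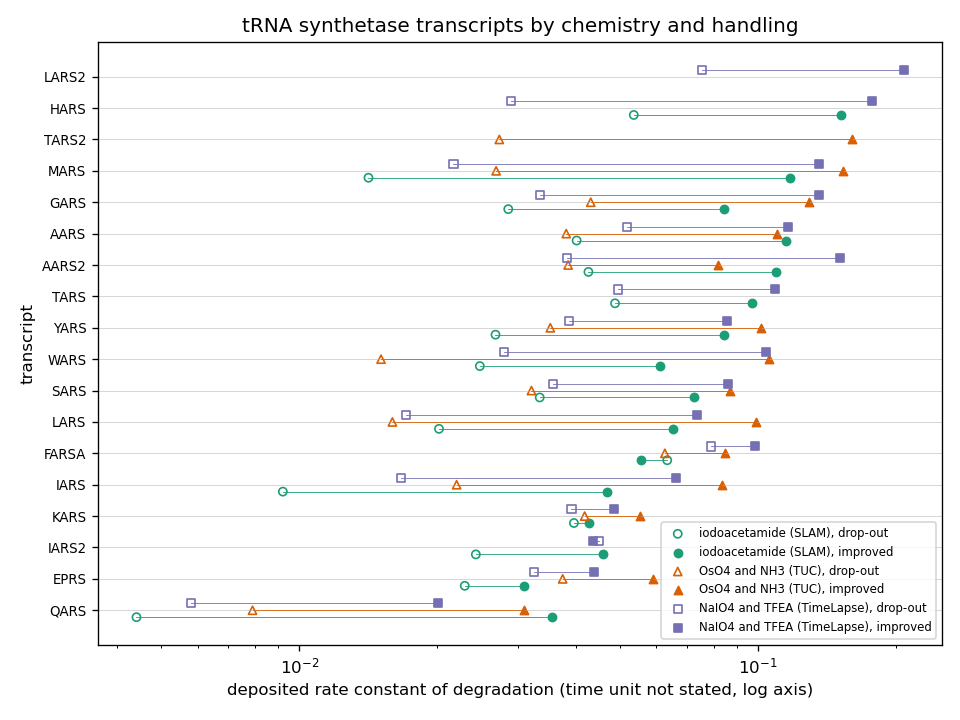
Deposited rate constants (log axis, time unit not stated) of 18 of the 19 synthetase transcripts, with open symbols for drop-out and filled symbols for improved handling, by chemistry. Of those with 3 values QARS is slowest by the mean of log2 constants under improved handling, at 0.0355, 0.0309 and 0.0200, and MARS fastest, at 0.117, 0.153 and 0.136.

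The enzymes of the multisynthetase complex did not share a rate. Of the 8 names on the list 6 had values, and 12 of their 18 values were called, beside 48.9%, 48.1% and 52.6% of all transcripts with SLAM, TUC and TimeLapse. These calls were those of IARS, LARS, MARS and QARS, each with all 3 chemistries. MARS, which charges methionine tRNAs, the initiator included, had DO constants of 0.0141, 0.0268 and 0.0217 and IH constants of 0.117, 0.153 and 0.136 in the authors' deposited table. All IH values were above all DO values, as they also were for KARS, which was not called. MARS had changes of 3.09, 2.54 and 2.68 and the authors' smallest adjusted p of any member (1.17e-10, 1.13e-09 and 5.20e-10). It moved from the 15.4, 32.3 and 22.9 percentile to the 68.3, 73.0 and 65.8 percentile.

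QARS, the glutamine enzyme, had the lowest constants of all synthetases under DO with each chemistry and under IH with TUC and TimeLapse, while EPRS was lower under IH with SLAM. Its DO constants were 0.00442, 0.00790 and 0.00580 and its IH constants 0.0355, 0.0309 and 0.0200 in the authors' deposited table. The changes of 3.10, 2.02 and 1.88 were all called (the authors' adjusted p = 6.94e-05, 0.00243 and 0.0154), and under DO it lay at the 0.438, 1.59 and 0.498 percentile of all transcripts. IARS (isoleucine) and LARS (leucine) were called with all 3 chemistries as well. IARS had IH constants of 0.0468, 0.0835 and 0.0662 and changes of 2.43, 1.96 and 2.04 in the authors' deposited table, and LARS had IH constants of 0.0652, 0.0988 and 0.0736 and changes of 1.82, 2.79 and 2.28.

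EPRS and KARS, of the same complex, were not called with any chemistry. EPRS, which joins glutamate and proline enzymes in 1 protein, had DO constants of 0.0229, 0.0375 and 0.0325 and IH constants of 0.0309, 0.0590 and 0.0438 in the authors' deposited table. Its changes were 0.48, 0.70 and 0.48 (the authors' adjusted p = 0.383, 0.207 and 0.347). KARS, the lysine enzyme of cytosol and mitochondria, had changes of 0.15, 0.48 and 0.39 (the authors' adjusted p = 0.827, 0.503 and 0.589) and IH constants of 0.0428, 0.0553 and 0.0484. Within the complex, then, the changes ran from 0.15 to 3.10, and DO values of EPRS and KARS lay above those of QARS throughout.

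Among other cytosolic synthetases, 16 of 22 values were called, beside 48.9%, 48.1% and 52.6% of all transcripts with SLAM, TUC and TimeLapse. GARS (glycine) had IH constants of 0.0845, 0.129 and 0.136 and changes of 1.60, 1.60 and 2.05 in the authors' deposited table (the authors' adjusted p = 0.00104, 0.000311 and 1.18e-06). AARS (alanine) had IH constants of 0.115, 0.110 and 0.116 and changes of 1.53, 1.54 and 1.18 (the authors' adjusted p = 7.24e-06, 0.000122 and 8.73e-05). SARS (serine) and YARS (tyrosine) were also called with all 3, at changes from 1.14 to 1.67. WARS (tryptophan) was called with TUC and TimeLapse (2.95 and 1.97) and had a change of 1.37 with SLAM (the authors' adjusted p = 0.0543). HARS (histidine) was called with both chemistries that gave it a value, at changes of 1.58 (SLAM) and 2.74 (TimeLapse).

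FARSA and TARS were the cytosolic enzymes outside the complex without a call. FARSA, the catalytic subunit for phenylalanine, had DO constants of 0.0634, 0.0626 and 0.0791 and IH constants of 0.0555, 0.0845 and 0.0987 in the authors' deposited table, and the values overlapped. Its changes were -0.20, 0.44 and 0.32 (the authors' adjusted p = 0.712, 0.336 and 0.397). TARS (threonine) had changes of 1.07 with SLAM and 1.24 with TimeLapse (the authors' adjusted p = 0.101 and 0.058), near the shift of all transcripts. A change without a call is not shown to be absent, since the table gives no error for it.

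Of the mitochondrial synthetases, 5 had values and 4 of their 10 values were called: 0 of 3 with SLAM, 1 of 3 with TUC and 3 of 4 with TimeLapse, beside 48.9%, 48.1% and 52.6% of all transcripts. AARS2 was called with TimeLapse alone, at a change of 2.05 in the authors' deposited table. TARS2 (TUC) and LARS2 (TimeLapse) had 1 value each, both called, with IH constants of 0.160 and 0.208. IARS2 had IH constants of 0.0458 (SLAM) and 0.0436 (TimeLapse) and changes of 1.07 and 0.04, neither called (the authors' adjusted p = 0.252 and 0.958).

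**Figure D3:**
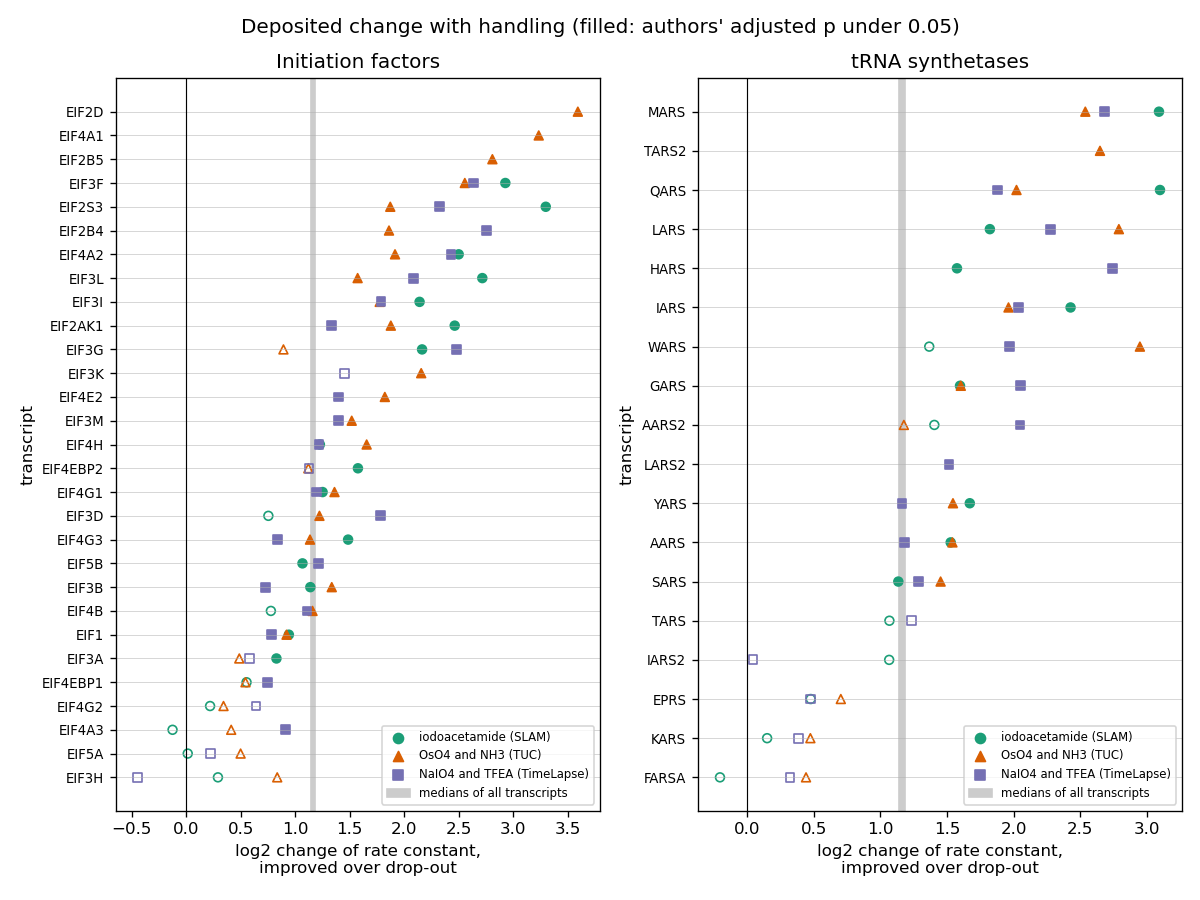
Log2 change of the deposited rate constant, improved over drop-out handling, for 47 of the 48 members by chemistry, filled where the authors' adjusted p is under 0.05. The grey band spans the medians of all transcripts, 1.14 to 1.19, and 3 values lie below 0: EIF3H with TimeLapse, EIF4A3 with SLAM and FARSA with SLAM.

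Among the initiation factors with a promoter window, those with the pyrimidine start had lower median constants than those without it. EIF2AK1, EIF3A, EIF3G, EIF3H, EIF3L and EIF4EBP1 had no window and stand on neither side. They include EIF3H and EIF3L, the slowest under IH of the initiation factors with 3 values. With SLAM the median DO constant was 0.0251 over the 5 transcripts with the pyrimidine start and 0.0505 over the 11 with another start. With TUC it was 0.0221 (8) and 0.0473 (14), and with TimeLapse 0.0208 (7) and 0.0618 (13), all from the authors' deposited table. Under IH the medians were 0.0535 and 0.0944 with SLAM, 0.0881 and 0.115 with TUC, and 0.0729 and 0.114 with TimeLapse. The median log2 changes were 2.50, 1.89 and 1.78 with the pyrimidine start and 1.14, 1.35 and 1.13 without. The ranges overlapped with each chemistry: EIF4A2 had the start and the fastest IH constants, and EIF3I, without it, was among the slowest.

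The other transcripts with the start were also slower by their medians. Their median IH constants were 0.0473 (139 transcripts with the start) and 0.0888 (1156 without) with SLAM, 0.0623 (153) and 0.104 (1707) with TUC, and 0.0612 (160) and 0.108 (1643) with TimeLapse. Their median log2 changes were 1.13 with the start and 1.18 without with SLAM, 1.34 and 1.21 with TUC, and 1.20 and 1.22 with TimeLapse. Whether the larger change of the initiation factors differs from that of the other transcripts was not tested, and the feature was looked up with the rates known.

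**Figure D4:**
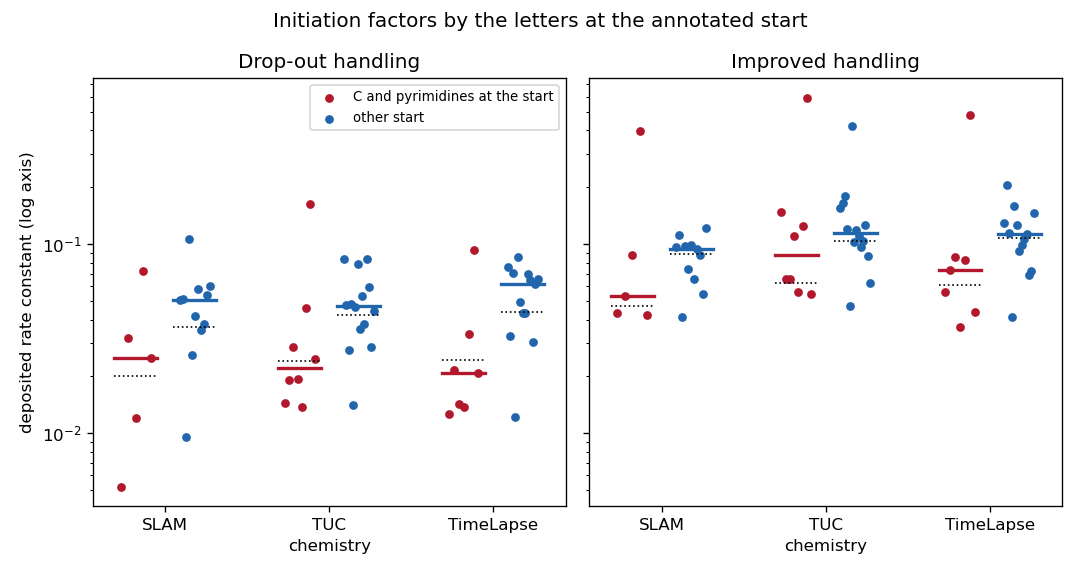
Deposited rate constants (log axis) of initiation factors with a C and 4 pyrimidines at the annotated start (red) and with another start (blue), by chemistry, under drop-out and improved handling. Initiation factors without a promoter window are left out. Coloured bars are medians of the points and dotted lines medians of the other transcripts of the table with the same kind of start, and the red medians lie below the blue ones in all 6 comparisons. The 6 comparisons draw on largely the same transcripts and are not independent.

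Synthetases with the TGATGNAA element had median IH constants of 0.106 with SLAM (4 transcripts), 0.110 with TUC (3) and 0.113 with TimeLapse (4) in the authors' deposited table. Those without it had 0.0555 (9), 0.0856 (8) and 0.0923 (10). Under DO this order was absent with SLAM and TUC, with medians of 0.0272 with the element and 0.0285 without (SLAM), 0.0268 and 0.0348 (TUC), and 0.0356 and 0.0346 (TimeLapse). IARS lay below the median of those without the element with each chemistry. In the other transcripts the medians with the element lay slightly lower, at 0.0830 (20 with the element) and 0.0842 (1275 without) under IH with SLAM, 0.0945 and 0.100 with TUC, and 0.0946 and 0.103 with TimeLapse.

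Of 19 further genes of initiation and tRNA charging that are not members, 5 had values, and 6 of their 11 values were called higher under IH and 0 lower, near the 48.9%, 48.1% and 52.6% of all transcripts. They are named here after their values were seen. LARP1, which binds pyrimidine starts, was called with all 3 chemistries at IH constants of 0.105, 0.123 and 0.118, and PABPC4, a poly(A)-binding protein, at 0.123, 0.132 and 0.183 in the authors' deposited table. PABPC1, its abundant relative, had IH constants of 0.0149, 0.0206 and 0.0186 and was not called (the authors' adjusted p = 0.0837, 0.560 and 0.143). PDCD4, an inhibitor of the helicase, and MKNK2, a kinase of the cap-binding factor, had 1 value each, and neither was called.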

How the data were processed

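The authors deposited rate constants of degradation from bakR, the log2 change from one handling to the other and an adjusted p-value for that change (per the labels), and a count table of reads by library, alignment, gene and T-to-C mismatch number, per the labels. Per the submitters' processing notes the build was GRCh38. The alignment behind the constants, the pooling of replicates and the method of adjustment are not given in the sources used here. The log2 change ran as IH over DO: it had the sign of the ratio of constants in 6051 of 6071 values and differed from its log2 by at most 0.352.

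From these values were computed, in Python 3.11.15 with pandas 2.3.3, medians, percentile ranks within a chemistry, Spearman's rho and counts at the authors' adjusted p under 0.05. The summary was tested on simulated data. Members were named by a rule: in each class the 4 highest and lowest in IH constant, the 2 largest and smallest changes, values below 0, members without a call and paralog pairs, with others in their role groups. The members and lists were chosen with earlier results of these data known. All 48 members matched a RefSeq symbol, 13 through an older name. Planned tests of member counts and converted shares per library were not run, because identifiers could not be paired with symbols. Of 28 samples, 18 were in the count table, and 10, made with further chemistries, are not analysed here. The values of 1 synthetase, which counts in its class, are not reported here.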

Additional observations from a re-analysis of the deposited data

Results flagged for a closer look

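Members whose change had 1 direction with 1 chemistry and the opposite direction with the others in the authors' deposited table were EIF3H, EIF4A3 and FARSA. The log2 change of EIF3H was -0.44 with TimeLapse, against 0.29 with SLAM and 0.84 with TUC. That of EIF4A3 was -0.13 with SLAM, against 0.41 with TUC and 0.91 with TimeLapse. That of FARSA was -0.20 with SLAM, against 0.44 with TUC and 0.32 with TimeLapse. None of the 3 values below 0 was called, and the difference between chemistries was not tested, since the table holds no value per library.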

How the results depend on the processing

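No paired analysis was possible because the deposited rate constants carry no value per library. For the same reason leaving out single replicates, and other settings for member counts and converted shares, were not run. A median is called moved here where it changed by more than the SD of its 3 chemistry values. Among transcripts with values in all 3 chemistries, the initiation-factor DO medians became 0.0352 (SLAM), 0.0379 (TUC) and 0.0435 (TimeLapse). Their IH median with TUC became 0.0867 and their median log2 change with TUC 1.16, and the synthetase change with TimeLapse 1.73. With TUC 13 of these 21 initiation factors were called, against 20 of 28 on the full list and 48.1% of all transcripts. The share of all transcripts with 3 values that were called with TUC was not counted. Without kinases, binding proteins and factors of other roles, the initiation-factor DO medians were 0.0352, 0.0286 and 0.0327, and the change with TimeLapse 1.40. Without mitochondrial enzymes the synthetase change with SLAM was 1.55. Means of log2 values gave DO levels of 0.0286 (SLAM) and 0.0338 (TimeLapse) for initiation factors and 0.0297 (TUC) for synthetases. At an adjusted p under 0.01, 11 of 28 initiation factors were called with TUC, beside 27.0% of all transcripts. With TimeLapse 7 of 26 were called, a share below the 33.5% of all transcripts. Centred on all transcripts, the median changes were 0.041, 0.25 and 0.042 for initiation factors and 0.26, 0.36 and 0.37 for synthetases (SLAM, TUC, TimeLapse), still above 0. Centring turned called changes below 0 for EIF1 (-0.20, -0.27 and -0.40), EIF3B (-0.0030 with SLAM, -0.45 with TimeLapse), EIF4A3 (-0.26 with TimeLapse) and EIF4B (-0.027 with TUC, -0.067 with TimeLapse). The same held for EIF3A (-0.31) and EIF5B (-0.075) with SLAM, EIF4EBP1 with TimeLapse (-0.43), EIF4G3 with TUC (-0.050) and TimeLapse (-0.34), SARS with SLAM (-0.0069) and YARS with TimeLapse (-0.012). The ratio of constants gave -0.046 for IARS2 with TimeLapse.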
